A study of Mus musculus with 14 samples.

Results

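Interferon-stimulated genes are genes whose transcription rises when a cell receives interferon, and 46 of them were followed here in sorted cells labelled microglia, the resident macrophages of the brain. The 46 were the rows of the count table whose symbol was on a list of well known genes of this kind, and all 46 were among the 14084 genes of the table. All 46 also passed the filter on low counts, which left 13861 genes to be tested. Fluorescence sorting was applied to cerebral cortex of C57BL/6 mice, whose age is given as 8 to 10 weeks. That age is given alike for every group up to day 90, so it cannot be the age at sorting in all of them. If it is the age at surgery, age at sorting rises with time after stroke and cannot be told apart from it. Stroke animals had a permanent tie on the distal middle cerebral artery, together with a 7 min closure of both common carotid arteries, and in sham animals only the surface of the skull was injured. Sham and 6 times (days 1, 3, 7, 21, 60 and 90) made up 7 groups of 2 libraries, or 14 libraries. The gate of the sort, the sampling time of sham animals and the number of animals behind each library were not stated in the labels, and the p-values then reflect only the spread among libraries, which may be technical.

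Type I interferons such as interferon beta bind a receptor made of IFNAR1 and IFNAR2. The receptor activates the kinases JAK1 and TYK2, and a transcription factor complex that contains STAT2 and IRF9 then binds the interferon-stimulated response element (ISRE) in promoters. Interferon gamma acts through another receptor, and its signal reaches promoters at the gamma-activated site (GAS). The gene products sense foreign nucleic acid, degrade RNA, block translation, deplete nucleotides or attack intracellular vacuoles. In the injured brain microglia are both a source and a target of type I interferon.

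The promoter sequences of the genes are shown first. The list holds genes known to respond to interferon, whose signal acts at these 2 elements, so frequent matches were to be foreseen. RefSeq promoter entries (build GRCm38.p6), which run from 250 bases before to 50 bases after a gene's start, were found for 34 of the 46 genes. The ISRE was searched as GAAANNGAA followed by A, on both strands. It occurred in 20 of the 34 genes (58.8%) and in 3.99% of all 27025 genes with an entry. More than 1 match was found in 8 of the genes and in 0.266% of all. The shorter form GAAANNGAA, which every ISRE match contains, occurred in 22 of the 34 (64.7%) and in 9.76% of all. The GAS form TTCNNNGAA, searched in the same way, occurred in 12 (35.3%) and in 9.55% of all, and in Ifitm3 and Bst2 it shared bases with an ISRE match. A match is a description of these letters and not a measured binding site.

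The 170 bases just upstream of the start are printed 5′ to 3′ on the gene's own strand, with ISRE and GAS matches on either strand in capitals, for 7 genes on which the results below turn. The first 4 are genes whose day 90 level was far below that at day 60.
Isg15 (chr4:156200819-156200988, minus strand): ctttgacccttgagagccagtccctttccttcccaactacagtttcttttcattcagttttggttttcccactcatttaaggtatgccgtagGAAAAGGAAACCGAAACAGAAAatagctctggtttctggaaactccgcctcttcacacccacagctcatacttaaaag
Ifit1 (chr19:34640719-34640888, plus strand): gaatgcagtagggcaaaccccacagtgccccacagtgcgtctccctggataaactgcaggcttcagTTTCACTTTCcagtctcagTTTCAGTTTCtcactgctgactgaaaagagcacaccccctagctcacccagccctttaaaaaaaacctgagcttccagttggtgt
Ifit3 (chr19:34583359-34583528, plus strand): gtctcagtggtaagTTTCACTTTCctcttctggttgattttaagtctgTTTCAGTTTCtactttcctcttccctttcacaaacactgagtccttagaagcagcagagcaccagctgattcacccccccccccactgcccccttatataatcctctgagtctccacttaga
Rsad2 (chr12:26456453-26456622, minus strand): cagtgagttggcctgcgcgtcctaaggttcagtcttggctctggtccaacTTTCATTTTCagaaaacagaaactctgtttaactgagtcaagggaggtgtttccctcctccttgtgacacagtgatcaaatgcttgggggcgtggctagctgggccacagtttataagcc
Isg15 holds 3 overlapping ISRE matches in this window, Ifit1 and Ifit3 hold 2 each and Rsad2 holds 1. Not all genes with such a fall carry the element: the entries of Oasl1, Xaf1, Isg20 and Ifit2 hold no ISRE match. The next 3 are GTPase genes, of which Gbp5 was higher than sham late and Igtp and Irgm2 were lower early.
Gbp5 (chr3:142496764-142496933, plus strand): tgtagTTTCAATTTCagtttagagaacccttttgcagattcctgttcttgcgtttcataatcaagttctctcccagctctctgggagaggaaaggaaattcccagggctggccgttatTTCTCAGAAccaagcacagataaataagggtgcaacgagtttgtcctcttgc
Igtp (chr11:58199386-58199555, plus strand): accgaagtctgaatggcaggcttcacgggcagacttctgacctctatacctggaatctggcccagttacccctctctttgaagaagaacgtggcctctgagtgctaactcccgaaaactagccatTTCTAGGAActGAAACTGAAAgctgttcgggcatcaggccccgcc
Irgm2 (chr11:58214807-58214976, plus strand): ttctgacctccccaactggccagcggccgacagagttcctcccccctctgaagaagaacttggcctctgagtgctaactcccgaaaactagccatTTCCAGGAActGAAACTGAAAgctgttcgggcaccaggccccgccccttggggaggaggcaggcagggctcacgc
All 3 carry both elements here, whereas the GTPase genes Gbp2 and Irgm1, not printed, hold 1 and 2 ISRE matches in this window and no GAS match. In Igtp and Irgm2, neighbouring genes of 1 family, the GAS match begins 11 bases before the ISRE match.

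Total counts were 15254983 to 28758420 in the 7 libraries numbered replicate 1 and 100625099 to 191692779 in the 7 numbered replicate 2, so replicate number and depth divide the libraries in the same way. Levels are CPM (counts scaled to a common library size) scaled by TMM factors and are given for replicates 1 and 2 in that order. CPM are not divided by transcript length, so levels are compared between libraries and not between genes. Differences are log2 fold changes ± 1 standard error from edgeR's quasi-likelihood test over all 14 libraries, and a gene was called at an adjusted p under 0.05 (Benjamini-Hochberg over 13861 genes). All 6 comparisons with sham share the same 2 sham libraries. The sham libraries stood apart in markers of other cells. The summed unscaled level of 11 of 12 listed neutrophil markers in the table was 16570 and 28980 CPM in sham and 367 to 6555 CPM in the 12 stroke libraries, and that of 8 of 8 monocyte markers was 6889 and 12440 against 535 to 10000. Called lower than in sham at the 6 times were 0, 1, 4, 0, 1 and 2 neutrophil and 0, 0, 3, 0, 2 and 2 monocyte markers, and 0 were called higher. The neutrophil sum in sham was mostly S100a8, S100a9, Csf3r and Retnlg. Mpo, Elane, Camp, Ltf and Ngp were higher in both day 90 libraries than in both sham libraries. The sum of 10 of 10 microglial markers was 2523 and 1463 CPM in sham and 2533 to 26120 in stroke libraries. The only marker at 0 in these 3 lists was Elane, in 1 day 7 library. Defining microglial markers were low in sham: Tmem119 stood at 18.3 and 2.08 CPM there and 41.7 to 386 CPM after stroke, Sall1 at 0.459 and 0.179 against 0.929 to 49.3, and Siglech at 3.87 and 0.169 against 11.6 to 263. Most of the sham sum was Csf1r (1824 and 1032 CPM), a gene that monocytes also express. Of the 10 microglial markers 3, 6, 7, 8, 6 and 6 were called higher than in sham at the 6 times and 0 lower. The name microglia is thus the label's, and it is least borne out by the markers in sham. Plasmacytoid dendritic cell markers (7 of 7) summed to 85.6 and 49.4 CPM in sham and 68.8 to 205.5 CPM after stroke, and the 1 erythroid marker in the table stood at 196 to 204 against 0 to 4.37 CPM. Endothelial markers (6 of 6) differed widely between the sham libraries, at 46.7 and 1496 CPM against 15.2 to 304 after stroke. B cell markers (6 of 6) summed to 122 and 142 CPM in sham and 7.46 to 287 after stroke. Of these 6, 4, 4, 3, 0, 0 and 0 were called lower than in sham at the 6 times and 0 higher. Many of the 46 genes are also transcribed in neutrophils and monocytes, and the part of these cells in the differences from sham was not tested. In sorted cells pooled into a library, fewer cells of a type and less RNA per cell cannot be told apart.

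Against sham, the calls among interferon-stimulated genes were lower levels at days 1, 3, 7 and 90, and at each time most of the 46 were not called. Day 21 held calls in both directions. The 3 calls at day 60 were higher, a share near that of all genes (6.52% beside 4.96%). Of the 46 genes, the numbers called lower were 4, 9, 12, 2, 0 and 14 at days 1, 3, 7, 21, 60 and 90. Among all genes tested the shares called lower were 1.37, 3.07, 5.63, 1.44, 2.89 and 2.73% in that order. Called higher were Gbp5 alone at day 21 and Gbp5, Ifi44 and Iigp1 at day 60, and 0 genes at days 1, 3, 7 and 90. The shares of all genes called higher were 3.18, 5.2, 7, 5, 4.96 and 5.12%. Over the whole time course 20 of the genes were called lower at 1 or more times, 3 were called higher and 23 were called at no time. The matching shares of all genes over the time course were not taken, so these counts cannot be set against them. A joint test of the 7 groups called 13 of the 46 genes and 7.21% of all. At unadjusted p under 0.05, 20, 25, 23, 10, 3 and 22 of the genes were lower and 1, 1, 1, 2, 6 and 2 were higher, where 21.8, 26.2, 29, 24.8, 26.9 and 26.2% of all genes differed in either direction. The 12 genes at day 21 are near that share and the 9 at day 60 are below it. DESeq2 called more of the 46 (14, 21, 23, 9, 5 and 22, and 31 jointly) and also more of all genes (1878, 2667, 3158, 2447, 2653 and 2616, and 3475 jointly, beside 631, 1147, 1751, 892, 1088 and 1089, and 999 jointly, by edgeR).

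Most calls, of the 46 and of all genes alike, were lost when a sham library was left out. Without sham replicate 1 the numbers of the 46 called at the 6 times were 0, 1, 1, 0, 0 and 2, and those of all genes were 92, 225, 390, 153, 132 and 187. Omitting sham replicate 2 instead left 0, 2, 2, 0, 0 and 1 of the 46 and 76, 228, 413, 68, 189 and 129 of all. With replicate 1 of the time itself left out they were 1, 2, 0, 9, 0 and 1 (273, 611, 355, 2410, 263 and 259 of all genes), and with replicate 2 left out 5, 3, 2, 0, 0 and 0 (947, 391, 464, 277, 220 and 243 of all). In these fits the lone library of a group is assumed to vary like the other groups. The joint test called 3 and 2 of the genes without sham replicate 1 or 2, 7 and 7 without a day 7 library, 20 without day 21 replicate 1, 4 and 5 without a day 60 library and 5 and 4 without a day 90 library. Of all genes it called 224 and 227, 463 and 492, 2185, 438 and 377, and 352 and 344 in these fits, beside 999 with every library.

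The median log2 fold change of the 46 genes was -1.21, -1.31, -1.29, -0.54, -0.08 and -1.34 at days 1, 3, 7, 21, 60 and 90, beside 0.04, 0.15, 0.06, 0.06, 0.14 and 0.11 over all genes. Medians taken within replicate 1 were -1.22, -1.56, -1.304, -0.37, 0.09 and -1.35, and those within replicate 2 were -1.17, -1.16, -1.21, -0.81, 0.02 and -1.39. The medians at the 5 other times stayed negative in both replicate numbers, whereas that at day 60 was -0.08 in the fit and above 0 in both. Upper-quartile scaling shifted the all-gene median by 0.07 to 0.22 against sham, and the sign of the median of the 46 did not change at those 5 times.

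**Figure D1:**
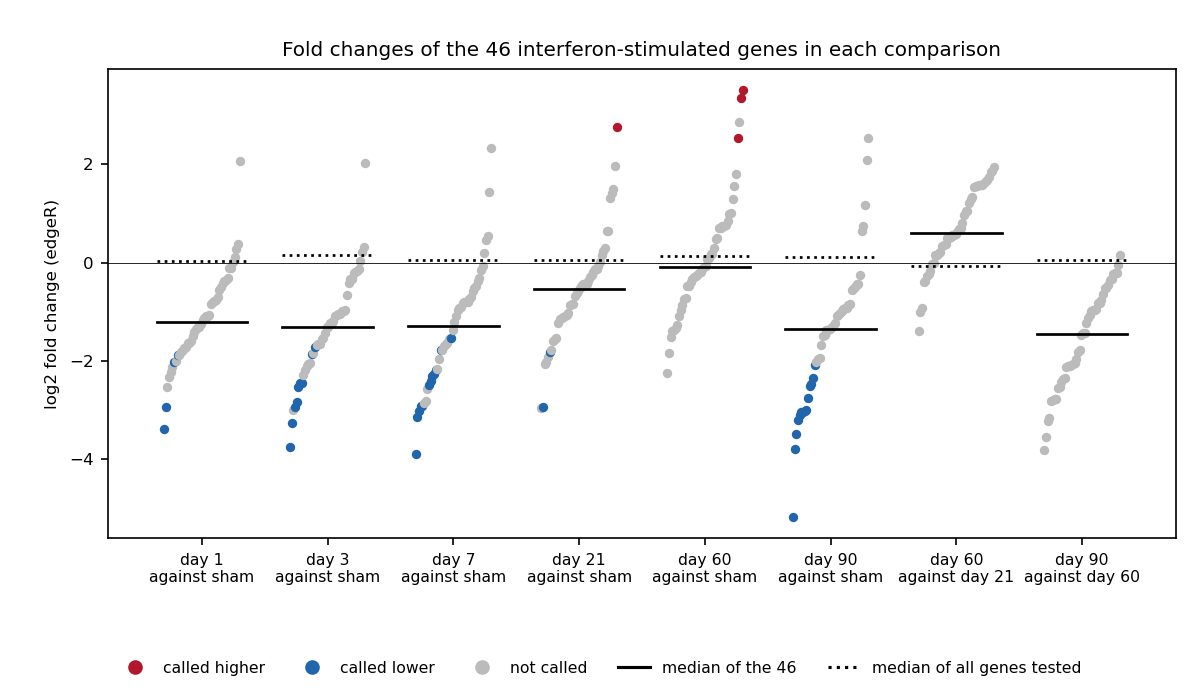
Log2 fold change of each of the 46 genes (points, sorted within a comparison) in 8 comparisons, coloured by call, with the median of the 46 (solid line) and of all genes tested (dotted line). The solid line lies below the dotted one in every comparison except day 60 against day 21, with medians from -1.45 to 0.61.

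Levels of single libraries gave a like picture, with no test. Both libraries of the time lay below both sham libraries for 28, 29, 29, 23, 13 and 33 of the 46 genes at days 1, 3, 7, 21, 60 and 90, where 23, 24.5, 27.6, 24.1, 26.9 and 27.2% of all genes did. At day 60 another 13 of the genes lay above both sham libraries, beside 33.9% of all genes. All 12 stroke libraries lay below both sham libraries for 10 of the genes (10.9% of all genes), namely Ifi47, Oasl2, Rsad2, Cmpk2, Ddx58, Parp9, Gbp2, Gbp7, Irgm2 and Samhd1. The reverse, all 12 above, held for 0 of the genes and for 10.3% of all.

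The group with the highest mean was sham for 23 of the 46 genes (50%, beside 26.4% of all genes), day 60 for 20 (43.5%, beside 15%) and day 21 for 3. The lowest mean fell at day 90 for 19 of the genes (41.3%, beside 8.33% of all), at day 3 for 12, at day 1 for 8, at day 7 for 6 and in sham for Bst2 alone. Levels of each gene in each library, set against the sham mean, are drawn by functional group.

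**Figure D2:**
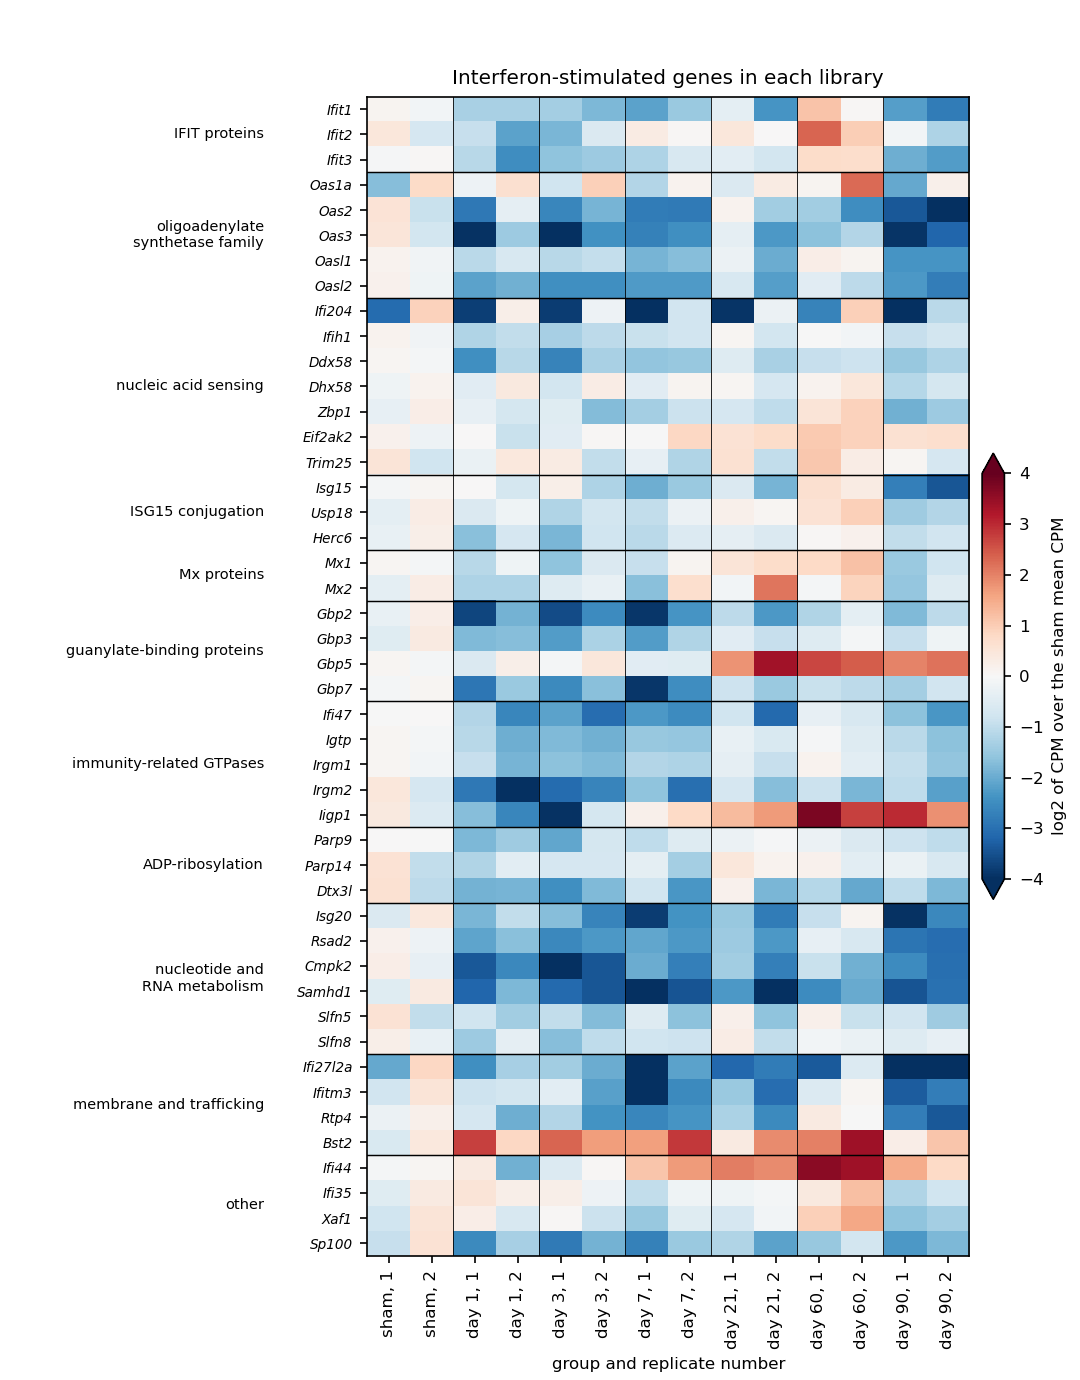
Log2 ratio of each library's CPM to the sham mean CPM for the 46 genes (rows, grouped by role) in the 14 libraries (columns, group and replicate number); colours saturate at 4 in either direction. Rows are mostly blue from day 1 to day 21 and at day 90, paler or red at day 60, while Bst2, Gbp5, Iigp1 and Ifi44 carry the strongest red.

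Sensors and signal starters of nucleic acid recognition did not pass the test at any time. The group holds Ddx58 (RIG-I), Ifih1 (MDA5) and Dhx58 (LGP2), which recognise viral RNA, Zbp1, a sensor of left-handed nucleic acid, Eif2ak2 (PKR), a kinase that shuts down translation on double-stranded RNA, Trim25, a ubiquitin ligase, and Ifi204, a DNA sensor. Called were 0 of 7 in either direction in each comparison, and the group's median log2 fold change against sham ran from -0.99 at day 3 to 0.31 at day 60. Ddx58 measured 102 and 89.8 CPM in sham and 14.9 to 67.6 CPM in the 12 stroke libraries, all below sham. Its lowest log2 fold change was -1.83 ± 0.55 (adjusted p = 0.0594) at day 3. Eif2ak2 had its lowest mean at day 1 and its highest at day 60, 2.55 times apart. Ifi204 cannot be read across libraries of different replicate number: it had 125 and 2008 CPM in sham, and replicate 2 was 11.2 to 16.03 times replicate 1 in all 7 groups. Its transcripts also share 20% of their 50-base words with other genes, so reads could be split between copies.

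The oligoadenylate synthetases make a short nucleotide chain that switches on the RNA-degrading enzyme RNase L, and the group also holds the related Oasl1 and Oasl2. Of its 5 genes, 1 was called lower at days 1 and 3, 2 at day 7, 0 at days 21 and 60 and 4 at day 90. Oas2, a synthetase, measured 62.4 and 23.03 CPM in sham, 5.84 and 33.3 at day 1, 7.04 and 11.8 at day 3 and 6.104 and 6.02 at day 7. Oas2 then measured 47.02 and 16.4 CPM at day 21, 16.4 and 7.63 at day 60 and 4.08 and 2.13 at day 90. Both day 90 libraries lay below every other library, and at days 3, 7 and 60 both libraries also lay below sham, while those of days 1 and 21 overlapped it. The log2 fold change at day 90 was -3.79 ± 0.90 (adjusted p = 0.0273), a 13.8-fold lower level.

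Oas3, another synthetase, measured 153 and 65.9 CPM in sham, 7.09 and 39.9 at day 1, 6.91 and 20.6 at day 3 and 16.9 and 19.8 at day 7. Oas3 then measured 85.6 and 22.1 CPM at day 21, 34.96 and 48.6 at day 60 and 7.24 and 12.2 at day 90. Only day 21 overlapped sham. The day 90 difference from sham was -3.49 ± 0.91 (adjusted p = 0.0386), and the other times did not pass. Oasl2, a synthetase-like gene, measured 406 and 319 CPM in sham, 81.4 and 96.7 at day 1, 66.4 and 66.5 at day 3 and 75.1 and 74.9 at day 7. Oasl2 then measured 231 and 78.5 CPM at day 21, 263 and 175 at day 60 and 74.4 and 53.04 at day 90. Every stroke library lay below both sham libraries, with the highest at day 60. Oasl2 was called lower at days 1, 3, 7 and 90, with log2 fold changes of -2.03 ± 0.51, -2.45 ± 0.52, -2.27 ± 0.51 and -2.51 ± 0.52 and adjusted p of 0.04498, 0.0165, 0.0172 and 0.0156. Oasl1, which restrains Irf7 translation in mouse cells, was called lower at days 7 (-1.77 ± 0.50) and 90 (-2.35 ± 0.51). Oas1a was called at no time. Its transcripts share 57.6% of their 50-base words with Oas1g, so its counts are uncertain.

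IFIT proteins bind viral RNA and block its translation. Of the 3 genes, Ifit1 and Ifit3 were called lower at day 90 and 0 were called at the other times. Ifit1, which binds RNA without a self-type cap, measured 94.8 and 81.2 CPM in sham, 35.6 and 35.6 at day 1, 34.3 and 25.5 at day 3 and 20.2 and 31.5 at day 7. Ifit1 then measured 67.7 and 17.1 CPM at day 21, 195 and 90.2 at day 60 and 19.2 and 12.8 at day 90. All libraries of days 1, 3, 7, 21 and 90 lay below both sham libraries, and at day 60 replicate 1 lay above them and replicate 2 between them. The difference from sham was 0.70 ± 0.59 (adjusted p = 0.48) at day 60 and -2.46 ± 0.62 (adjusted p = 0.0355) at day 90. Ifit3, a partner of Ifit1, measured 122 and 127 CPM in sham, 57.98 and 22.3 at day 1, 40.4 and 45.3 at day 3 and 53.4 and 79.9 at day 7. Ifit3 then measured 92.6 and 74.7 CPM at day 21, 207 and 203 at day 60 and 32.5 and 26.6 at day 90. Both day 60 libraries lay above the other 12, and all other stroke libraries lay below sham. Ifit3 was 0.72 ± 0.46 (adjusted p = 0.336) from sham at day 60 and -2.08 ± 0.47 (adjusted p = 0.0233) at day 90. Its transcripts share 51.2% of their 50-base words with Ifit3b, so reads could be split between the copies. Ifit2 ranged from 9.13 CPM in a day 1 library to 203 CPM in a day 60 library.

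ISG15 is a ubiquitin-like protein attached to other proteins, Herc6 is the mouse ligase that attaches it and Usp18 removes it and dampens the interferon receptor. Of these 3 genes, Isg15 was called lower at day 90 and there were no other calls. Isg15, the modifier itself, measured 42.1 and 47.5 CPM in sham, 45.2 and 27.4 at day 1, 52.3 and 19.2 at day 3 and 11.7 and 15.9 at day 7. Isg15 then measured 29.7 and 12.4 CPM at day 21, 70.1 and 56.8 at day 60 and 6.77 and 4.17 at day 90. Days 7, 21 and 90 lay below sham, day 60 lay above it and days 1 and 3 overlapped it. Both day 90 libraries were below every other library, and the day 90 level was 8.203-fold below sham (-3.04 ± 0.61, adjusted p = 0.0135). Usp18, the protease of the group, measured 70.03 and 114 CPM in sham, 61.6 and 81.9 at day 1, 39.9 and 54.9 at day 3 and 46.7 and 78 at day 7. Usp18 then measured 107 and 97.8 CPM at day 21, 138 and 178 at day 60 and 34.6 and 41.1 at day 90. Days 3 and 90 lay below both sham libraries and day 60 above them. No time passed the test, with the lowest value at day 90 (-1.29 ± 0.43, adjusted p = 0.08402). Herc6 ranged from 14.3 to 59.97 CPM, the lowest in a day 3 library and the highest in sham.

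Mx proteins are dynamin-like GTPases that restrict viruses. Neither gene was called at any time. Mx1, the nuclear form in mice, measured 13.8 and 12.4 CPM in sham, 6.07 and 11.7 at day 1, 4.28 and 8.82 at day 3 and 6.93 and 14.2 at day 7. Mx1 then measured 18.8 and 21.9 CPM at day 21, 22.8 and 29.7 at day 60 and 4.65 and 7.58 at day 90. Days 1, 3 and 90 lay below sham, days 21 and 60 above it, and day 7 straddled it. The differences at days 60 and 90 were 1.01 ± 0.55 (adjusted p = 0.256) and -1.09 ± 0.55 (adjusted p = 0.229). Mx2 ranged from 1.405 CPM in a day 7 library to 19.7 CPM in a day 21 library.

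Guanylate-binding proteins coat vacuoles and bacteria and are strongly driven by interferon gamma. Gbp5 was called higher at days 21 and 60, Gbp2 lower at days 3 and 7 and Gbp7 lower at day 7, and Gbp3 was called at no time. Gbp2, a vacuole-coating member, measured 133 and 197 CPM in sham, 12.99 and 44.5 at day 1, 13.9 and 29 at day 3 and 11.05 and 32.5 at day 7. Gbp2 then measured 79.5 and 33.8 CPM at day 21, 71.5 and 126 at day 60 and 48.1 and 79.1 at day 90. All 12 stroke libraries lay below sham, with the lowest at days 1, 3 and 7 in replicate 1. Gbp2 was 7.68-fold and 7.58-fold lower at days 3 and 7 (-2.94 ± 0.76, adjusted p = 0.0345, and -2.92 ± 0.75, adjusted p = 0.0277).

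Gbp7, another member, measured 82.3 and 91.3 CPM in sham, 11.8 and 31.3 at day 1, 15 and 27.1 at day 3 and 5.81 and 15.5 at day 7. Gbp7 then measured 49.2 and 30.7 CPM at day 21, 46.6 and 41.98 at day 60 and 34.1 and 51.5 at day 90. Again every stroke library was below sham, and the difference passed at day 7 alone (-3.02 ± 0.62, adjusted p = 0.0118). Gbp5, which promotes inflammasome assembly, measured 2.67 and 2.38 CPM in sham, 1.702 and 2.97 at day 1, 2.37 and 3.46 at day 3 and 1.84 and 1.804 at day 7. Gbp5 then measured 8.72 and 25.7 CPM at day 21, 15.9 and 13.5 at day 60 and 10.02 and 11.4 at day 90. Days 21, 60 and 90 lay above all libraries of sham and of days 1, 3 and 7. The differences from sham were 2.77 ± 0.61 (adjusted p = 0.0234), 2.54 ± 0.60 (adjusted p = 0.0281) and 2.08 ± 0.59 (adjusted p = 0.0522) at these 3 times, so that day 90 did not pass. Gbp5 therefore went in the opposite direction to Gbp2, Gbp3 and Gbp7 of the same family at days 21, 60 and 90, under TMM, median-of-ratios and upper-quartile scaling alike, although those 3 genes did not pass at these times.

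Immunity-related GTPases are a mouse defence against vacuole-dwelling pathogens, in which the regulators Irgm1, Irgm2 and Igtp (Irgm3) hold effectors such as Iigp1 in check. Of the 5 genes, 1 was called lower at day 1, 4 at day 3 and 2 at day 7, and Iigp1 was called higher at day 60. Irgm2, a regulator, measured 53.4 and 24.7 CPM in sham, 5.33 and 2.25 at day 1, 4.67 and 6.298 at day 3 and 12.7 and 4.87 at day 7. Irgm2 then measured 24.5 and 11.96 CPM at day 21, 21.4 and 10.96 at day 60 and 19.2 and 8.72 at day 90. The 12 stroke libraries were all below sham, with the lowest value at day 1. Irgm2 was 10.4-fold lower at day 1 and 7.09-fold lower at day 3 (-3.38 ± 0.75, adjusted p = 0.0266, and -2.83 ± 0.73, adjusted p = 0.0354). It shares 6.79% of its 50-base words with Igtp and overlaps it, so some reads could have gone to either.

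Irgm1, another regulator, measured 123 and 108 CPM in sham, 61.1 and 32.1 at day 1, 37.2 and 33.5 at day 3 and 51.5 and 48.5 at day 7. Irgm1 then measured 90.3 and 60.2 CPM at day 21, 127 and 85.7 at day 60 and 58.98 and 38.95 at day 90. Day 60 overlapped sham, and both libraries of the other 5 times lay below it. Only day 3 passed (-1.71 ± 0.44, adjusted p = 0.0368). Iigp1, an effector, measured 2.67 and 1.39 CPM in sham, 0.624 and 0.332 at day 1, 0.132 and 1.25 at day 3 and 2.33 and 3.501 at day 7. Iigp1 then measured 4.84 and 6.58 CPM at day 21, 27.5 and 13.6 at day 60 and 16.1 and 7.19 at day 90. The day 3 value of replicate 1 rests on 2 counts. Days 1 and 3 lay below sham, day 7 overlapped it and days 21, 60 and 90 lay above it. Day 60 was 10.2-fold above sham (3.35 ± 0.89, adjusted p = 0.0415), and day 90 missed the threshold (2.53 ± 0.87, adjusted p = 0.0916). Igtp was called lower at days 3 (-1.85 ± 0.42) and 7 (-1.53 ± 0.42), as was Ifi47 (-2.53 ± 0.71 and -2.40 ± 0.71).

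Parp9 and Dtx3l form a complex that modifies histones and host proteins, and Parp14 is a related ADP-ribosyltransferase. Called were 0 of the 3 genes in each comparison. Parp9 measured 66.7 and 65.8 CPM in sham and 15.5 to 64.5 CPM in stroke libraries, all below sham. Parp9 and Dtx3l overlap on opposite strands over 9.4 and 8% of their exonic bases, and the labels do not state a strand setting for the counting. Dtx3l differed between the sham libraries (128 and 40.7 CPM), which limits its comparison. Parp14 varied least between group means of these 3 genes, 2.13-fold from day 7 to day 21.

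The 6 genes that act on nucleotides and RNA held calls at every time except day 60. Rsad2 (viperin) makes a chain-terminating nucleotide, Cmpk2 is the mitochondrial kinase encoded beside it, Samhd1 breaks down deoxynucleotides, Isg20 is an RNA-degrading nuclease, and Slfn5 and Slfn8 are schlafen genes. The numbers called lower were 2, 3, 4, 2, 0 and 4 in order of time. Rsad2, viperin, measured 239 and 183 CPM in sham, 48.8 and 65.7 at day 1, 35.3 and 42.6 at day 3 and 49.8 and 43.02 at day 7. Rsad2 then measured 77.03 and 43.2 CPM at day 21, 169.98 and 136 at day 60 and 27.8 and 25.5 at day 90. All 12 stroke libraries lay below sham, day 60 came nearest and day 90 was the lowest. Rsad2 was called lower at every time except day 60, with log2 fold changes of -1.88 ± 0.41, -2.44 ± 0.42, -2.19 ± 0.42, -1.81 ± 0.41 and -2.99 ± 0.43 in order of time. The adjusted p at these times were 0.0261, 0.00695, 0.00847, 0.0267 and 0.00396, and at day 60 the difference was -0.47 ± 0.40 (adjusted p = 0.487).

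Cmpk2, the nucleotide kinase, measured 159 and 103 CPM in sham, 12.6 and 21.9 at day 1, 7.301 and 12.2 at day 3 and 33.1 and 19.6 at day 7. Cmpk2 then measured 49.8 and 19.7 CPM at day 21, 70.7 and 34.3 at day 60 and 22.99 and 16.1 at day 90. Every stroke library was below sham, and both day 3 libraries were below those of the other groups. Differences at days 1, 3, 7 and 90 were -2.93 ± 0.61 (adjusted p = 0.0204), -3.75 ± 0.63 (adjusted p = 0.00615), -2.31 ± 0.59 (adjusted p = 0.0271) and -2.75 ± 0.60 (adjusted p = 0.01999). The day 3 level was 13.4-fold below sham, and days 21 and 60 did not pass. Samhd1, the deoxynucleotide hydrolase, measured 1274 and 2269 CPM in sham, 195 and 509.9 at day 1, 205 and 164 at day 3 and 75.7 and 163 at day 7. Samhd1 then measured 357 and 106 CPM at day 21, 308 and 441 at day 60 and 163 and 224 at day 90. The sham libraries were again the 2 highest of 14. Samhd1 was called lower at days 3, 7, 21 and 90 (-3.26 ± 0.72, -3.89 ± 0.74, -2.94 ± 0.71 and -3.20 ± 0.71, with adjusted p of 0.0189, 0.008105, 0.0327 and 0.0211). Isg20 was called lower at days 7 (-2.91 ± 0.74) and 90 (-3.10 ± 0.75), while Slfn5 and Slfn8 were called at no time and had log2 fold changes from -1.31 to -0.19.

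The 4 genes of membranes and trafficking did not move alike. Ifitm3 blocks fusion of viruses with endosomes, Bst2 (tetherin) holds budding virus at the cell surface, Ifi27l2a is a small mitochondrial membrane protein and Rtp4 is a receptor-transporting protein. Ifitm3, the fusion blocker, measured 677 and 1648 CPM in sham, 658 and 694 at day 1, 873 and 259.7 at day 3 and 63.5 and 199 at day 7. Ifitm3 then measured 414 and 141 CPM at day 21, 788 and 1229.7 at day 60 and 116 and 171 at day 90. Days 7, 21 and 90 lay below sham and days 1, 3 and 60 overlapped it. The called differences were -3.15 ± 0.81 (adjusted p = 0.0272) at day 7 and -3.02 ± 0.80 (adjusted p = 0.0412) at day 90. Ifi27l2a, the mitochondrial protein, measured 98.7 and 725 CPM in sham, 74.9 and 166 at day 1, 158 and 103 at day 3 and 19.1 and 94.1 at day 7. Ifi27l2a then measured 47.1 and 59.5 CPM at day 21, 40.2 and 281 at day 60 and 4.63 and 18.2 at day 90. The sham libraries differed by 7.35 times, and both day 90 libraries lay below all others. Day 90 was -5.17 ± 1.3005 (adjusted p = 0.0368) from sham, 36.02-fold lower, the largest fall of the 46 genes in any comparison with sham.

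Bst2, tetherin, measured 40.1 and 81.04 CPM in sham, 403 and 108 at day 1, 302 and 195 at day 3 and 189.9 and 426 at day 7. Bst2 then measured 77.8 and 223 CPM at day 21, 247 and 637 at day 60 and 73.2 and 131 at day 90. Sham had the lowest mean, days 1, 3, 7 and 60 lay above it in both libraries and days 21 and 90 overlapped it. Bst2 did not pass at any time: the nearest was day 60 (2.87 ± 0.81, adjusted p = 0.0502), followed by day 7 (2.35 ± 0.79, adjusted p = 0.0722). Rtp4 was called lower at days 7 (-2.48 ± 0.61) and 90 (-3.04 ± 0.63) and had its highest mean at day 60.

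Of the 4 remaining genes, Xaf1 binds the cell death inhibitor XIAP, Ifi35 is a binding partner of Nmi, Sp100 is a nuclear body protein and Ifi44 is a cytoplasmic protein of less clear action. Ifi44 was called higher at day 60, and the other 3 were called at no time. Ifi44, the called gene, measured 1.82 and 1.996 CPM in sham, 2.44 and 0.505 at day 1, 1.32 and 1.95 at day 3 and 4.12 and 6.24 at day 7. Ifi44 then measured 7.85 and 7.09 CPM at day 21, 23.4 and 20.1 at day 60 and 5.31 and 3.28 at day 90. Days 7, 21, 60 and 90 lay above sham, and both day 60 libraries lay above the other 12. Day 60 was 11.4-fold above sham (3.51 ± 0.74, adjusted p = 0.0181), and days 21 and 90 were 1.97 ± 0.70 (adjusted p = 0.1097) and 1.17 ± 0.68 (adjusted p = 0.3004). Sp100 measured 306 and 865 CPM in sham and 82.4 to 353 CPM after stroke, where 1 day 60 library overlapped sham.

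**Figure D3:**
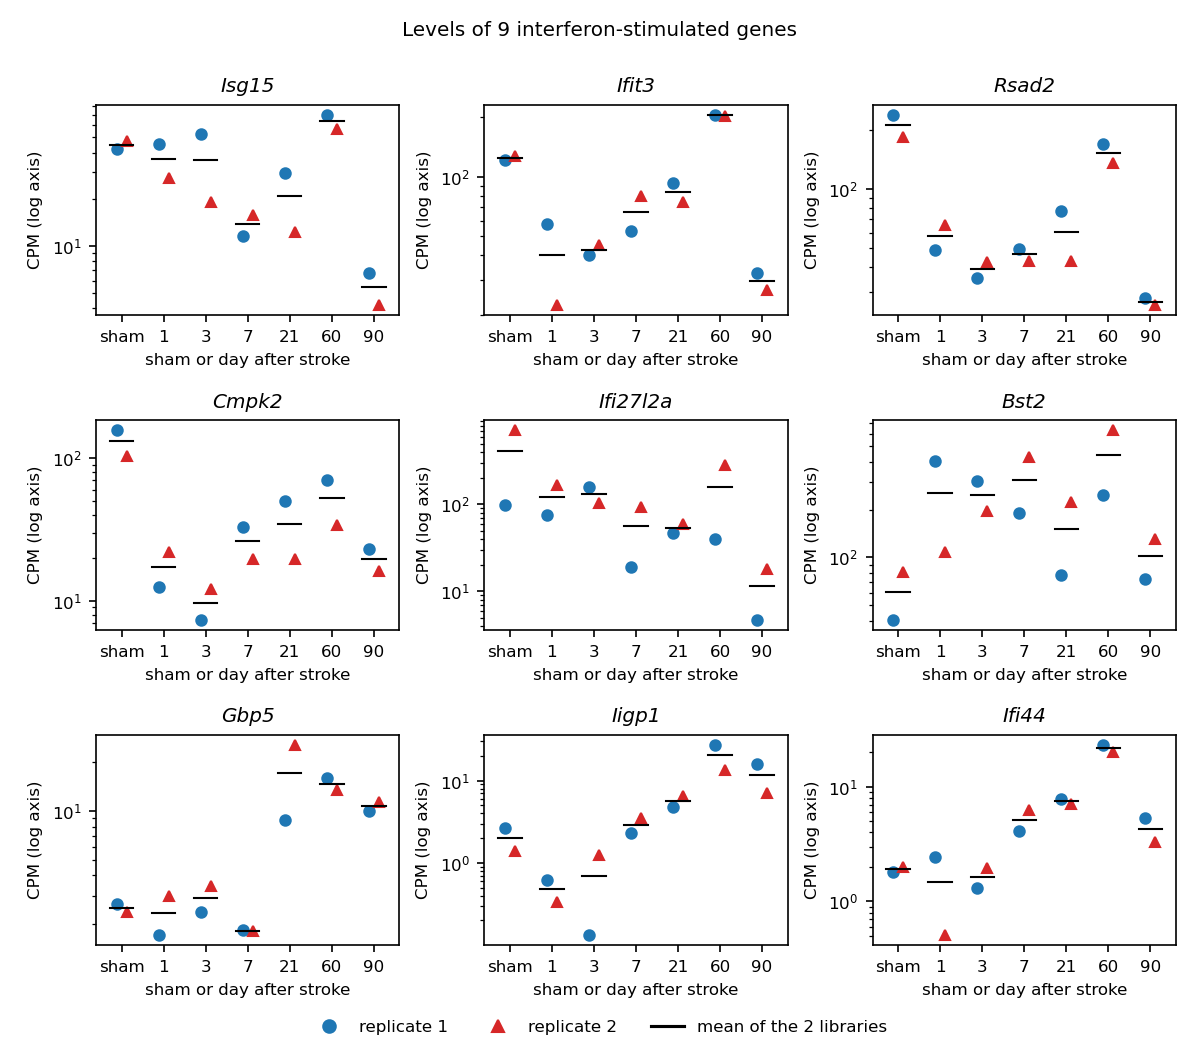
CPM (log axis) of 9 of the genes in sham and at each day after stroke; circles are replicate 1, triangles replicate 2 and bars the mean of the 2 libraries. Isg15, Ifit3, Ifi44 and Rsad2 show day 60 above day 90 in both libraries, Cmpk2 is highest in sham, and the Gbp5 libraries of days 21, 60 and 90 lie above the other 8.

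Levels of most of the genes were lower at day 90 than at day 60. The direct comparisons of day 90 with day 60 and of day 60 with day 21 were chosen with earlier results of these data known. From day 60 to day 90 the log2 fold change was negative for 45 of the 46 genes, with a median of -1.45 beside 0.07 over all genes. The one gene above 0 was Dtx3l (0.16 ± 0.73). Both day 90 libraries lay below both day 60 libraries for 36 of the 46 genes, where 22.6% of all genes did. Within replicate 1 the median was -1.53 and within replicate 2 it was -1.56. By edgeR 0 of the 46 and 0% of all genes were called between these times. At unadjusted p under 0.05, 24 of the 46 genes differed, all lower at day 90, beside 442 of all genes (3.19%). DESeq2 called 9 of the 46 genes, all lower, while it called 20 genes lower of 11711 with an adjusted p (0.171%) and 23 in either direction. limma-voom called 0 of the 46 and 0 of all.

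The 9 genes that DESeq2 called were Isg15 (log2 fold change -3.51 ± 0.60, adjusted p = 6.29e-05), Ifit3 (-2.77 ± 0.49, 6.29e-05), Rsad2 (-2.50 ± 0.44, 6.29e-05), Rtp4 (-3.20 ± 0.61, 0.000284), Ifit1 (-3.14 ± 0.64, 0.00103), Zbp1 (-2.40 ± 0.52, 0.0036), Oasl1 (-2.52 ± 0.54, 0.00363), Xaf1 (-2.74 ± 0.61, 0.00625) and Usp18 (-2.03 ± 0.46, 0.007501). In edgeR's test the same 9 had adjusted p of 0.334 to 0.556. Isg15 fell from 70.1 and 56.8 CPM to 6.77 and 4.17, an 11.6-fold lower level. Outside the 46 genes DESeq2 also called Ifnb1 (-3.69 ± 0.83, 0.00664), Irf7 (-2.91 ± 0.53, 9.07e-05), the chemokine gene Cxcl10 (-2.60 ± 0.59, 0.007501) and I830012O16Rik (-3.10 ± 0.55, 6.29e-05), a synonym of Ifit3b in the RefSeq table. The 10 others were Trex1 of the pathway list (-2.36 ± 0.60, 0.0462), Ccl4, Tnf, Il23a, Nupr1, Ly6i and Pydc4, all lower, and Ces1d, Mfge8 and Prss34, which were higher at day 90. Those that are not on the pathway list were named after their values were seen.

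**Figure D4:**
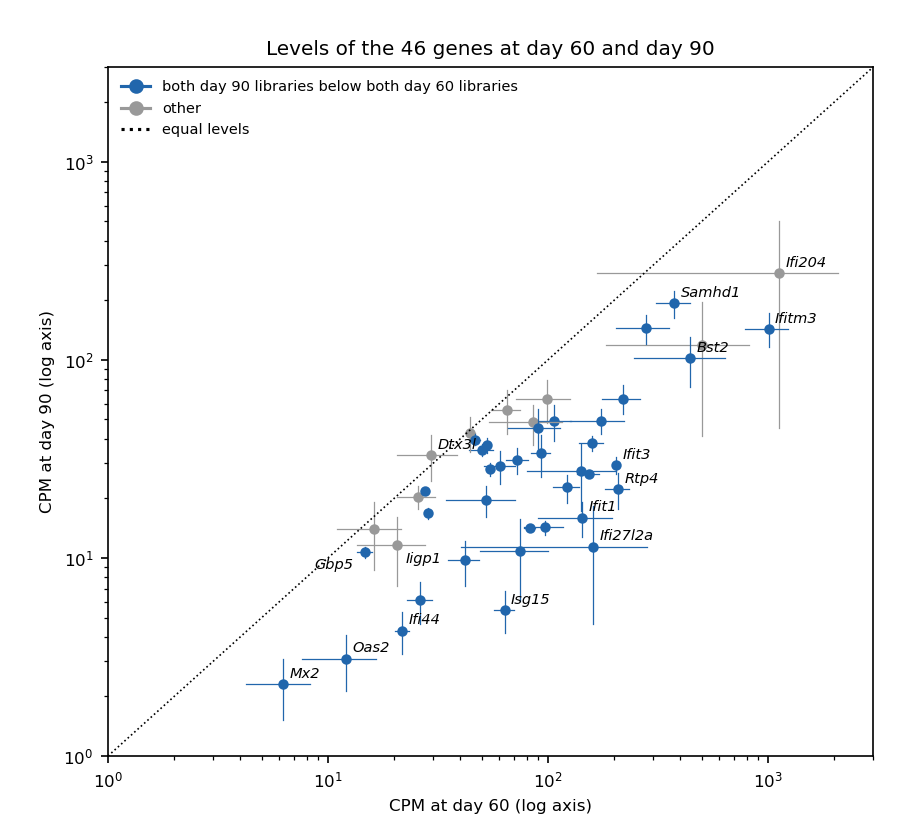
Mean CPM at day 60 (x, log axis) against day 90 (y, log axis) for the 46 genes, with lines from the lower to the higher of the 2 libraries and a dotted line of equal levels. All but 1 of the 46 points lie below the line and 36 (blue) have both day 90 libraries below both day 60 libraries.

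By role, the median log2 fold change from day 60 to day 90 was -2.79 for IFIT proteins, -2.09 for the synthetase family, -2.06 for ISG15 conjugation, -1.77 for Mx proteins, -3.02 for membrane and trafficking and -2.08 for the remaining genes. It was -0.33 for guanylate-binding proteins, -0.33 for ADP-ribosylation, -0.99 for sensors, -1.06 for immunity-related GTPases and -1.19 for nucleotide and RNA metabolism. These differences between roles were not tested. From day 21 to day 60, 37 of the 46 genes had a positive log2 fold change, with a median of 0.61 beside -0.06 over all genes. Both day 60 libraries lay above both day 21 libraries for 21 of the 46, beside 23.9% of all genes. By edgeR 0 of the 46 were called between these times and 0.0216% of all genes, by DESeq2 0 of the 46 and 362 of all, and by limma-voom 0 of the 46 and 13 of all. At unadjusted p under 0.05 there were 12 of the 46, all higher at day 60, beside 13% of all genes. Without day 21 replicate 1 edgeR called 1 of the 46 higher (360 of all genes).

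Among the stroke libraries alone, some of the genes had their extremes at the late times. Both day 60 libraries lay above the other 10 stroke libraries for 16 of the 46 genes, where 2.79% of all genes did. These were Isg15, Isg20, Ifit1, Ifit2, Ifit3, Ifi44, Ifi47, Oasl1, Mx1, Rsad2, Usp18, Rtp4, Xaf1, Zbp1, Herc6 and Eif2ak2. Both day 90 libraries lay below the other 10 stroke libraries for Isg15, Ifi27l2a, Oas2, Oasl1, Rsad2 and Rtp4, 6 of the 46 genes beside 1.1% of all. These counts were chosen after the levels were seen, and they carry no test. Other markers moved between the same libraries. From day 60 to day 90 the neutrophil marker sum went from 769.6 and 818 to 4095 and 3599 CPM. Most of that rise was Ltf (56.1 and 66.3 to 1178 and 1331 CPM) and Ngp (144.8 and 80.17 to 1498 and 813.8 CPM). Retnlg (81.28 and 126.9 to 53.9 and 75.05 CPM) and Cxcr2 (30.85 and 13.93 to 20.93 and 11.86 CPM) fell within each replicate number. The monocyte sum went from 746 and 929 to 1083 and 1235 CPM, the microglial sum from 3556 and 4461 to 6129 and 7584 CPM and the B cell sum (6 of 6 markers) from 165 and 159 to 287 and 265 CPM. The T and NK cell sum (9 of 10) went from 70.6 and 71.8 to 137.5 and 135.6 CPM and the plasmacytoid dendritic cell sum (7 of 7) from 139 and 90.2 to 170.2 and 137 CPM. Their part in the day 90 levels was not tested.

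Genes that make, receive and pass on the interferon signal were taken from a list of 46 pathway genes, none of them among the 46 above, of which 41 were in the table and 40 were tested. Called higher and lower were 1 and 1, 2 and 4, 3 and 5, 3 and 0, 2 and 2 and 2 and 2 in order of time, beside the shares of all genes given above. The ligand Ifnb1, which encodes interferon beta, had 0 counts in both sham libraries. It measured 15.6 and 10.6 CPM at day 1, 43.7 and 6.63 at day 3 and 0.9205 and 2.07 at day 7. Ifnb1 then measured 1.09 and 2.62 CPM at day 21, 27.8 and 19.7 at day 60 and 1.73 and 1.89 at day 90. Against a sham floor of 3 counts in both libraries together, group means were at least 439.9-, 844-, 50.1-, 62.3-, 798- and 60.9-fold higher, and Ifnb1 was called higher at all 6 times. Its level was thus high at days 1, 3 and 60, while the 46 genes had medians below sham at days 1 and 3 and near sham at day 60. Ifna1 was in the table and not tested.

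Both receptor genes of type I interferon were uncalled at each time, Ifnar1 with 119.8 and 86.6 CPM in sham and 54.6 to 152 CPM after stroke, and Ifnar2 with 193 and 248 and 182 to 509 CPM. Irf9 had 161 and 156 CPM in sham and 59.9 to 141 after stroke and was called lower at day 3 (-1.31 ± 0.35, adjusted p = 0.0398). Stat2 was not called and ranged from 14.4 to 87.4 CPM over all libraries.

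Irf7, the regulator that amplifies interferon production and is itself induced by interferon, measured 319.9 and 367 CPM in sham, 151 and 236 at day 1, 116 and 185 at day 3 and 93.9 and 192 at day 7. Irf7 then measured 287 and 172 CPM at day 21, 581 and 808 at day 60 and 74.7 and 106 at day 90. Day 60 lay above all other libraries and day 90 lay below sham. The difference from sham passed at day 90 (-1.92 ± 0.51, adjusted p = 0.0408) and not at day 60 (1.02 ± 0.50, adjusted p = 0.213). Upstream of interferon, the RNA sensor gene Tlr3 was called higher from day 3 to day 90 (2.50 ± 0.61 to 3.46 ± 0.63, the latter at day 21), and the adaptor gene Myd88 was called lower at days 3, 7, 60 and 90 (-1.95 ± 0.50, -2.57 ± 0.51, -1.98 ± 0.50 and -2.48 ± 0.51). Tmem173 (STING) was called higher at day 21 (1.83 ± 0.38, adjusted p = 0.0191). Irf2, a repressor of interferon genes, was called lower at days 3 (-2.09 ± 0.48) and 7 (-2.23 ± 0.49), and the kinase gene Jak1 at days 7 (-1.89 ± 0.52) and 60 (-1.96 ± 0.52). At day 7 the regulator gene Irf1 (-2.08 ± 0.57) and the interferon gamma receptor gene Ifngr1 (-1.68 ± 0.42) were also called lower, and Mavs was called higher (1.90 ± 0.50).

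**Figure D5:**
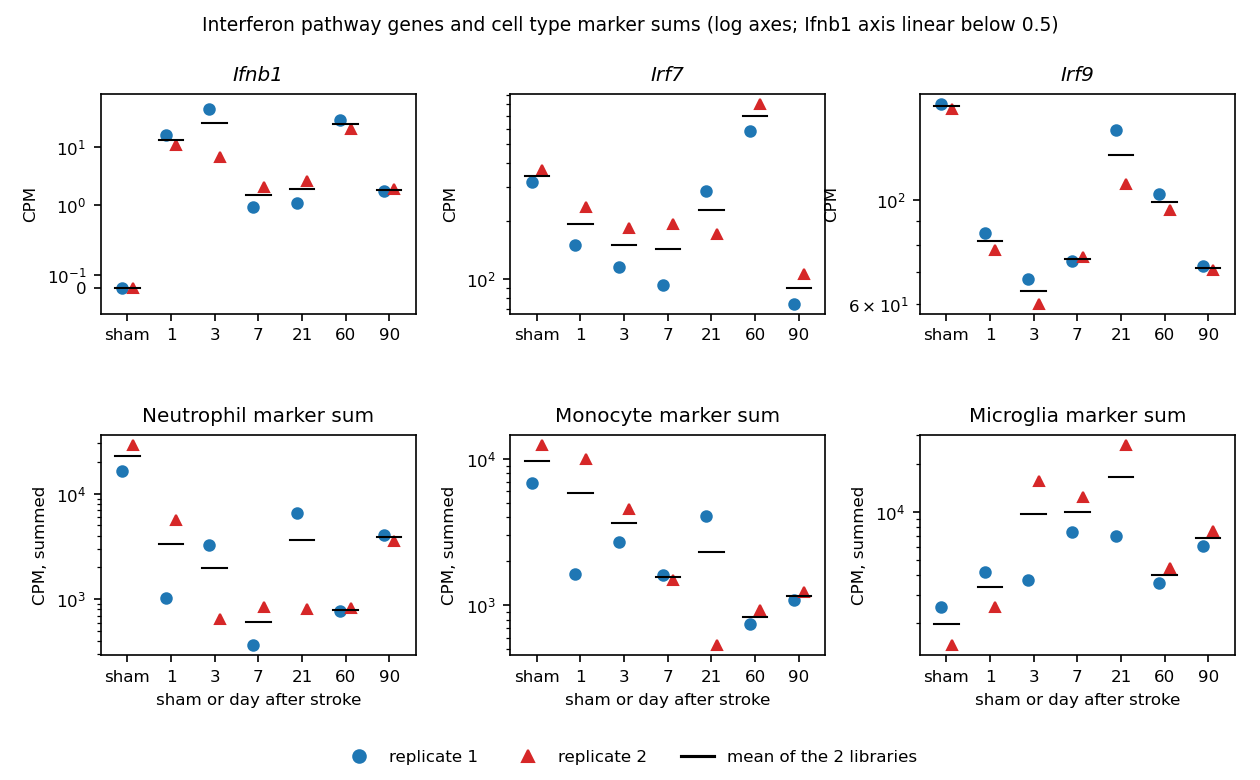
Upper row, CPM of Ifnb1, Irf7 and Irf9; lower row, summed CPM of neutrophil, monocyte and microglial markers, in sham and at each day after stroke (log axes, the Ifnb1 axis linear below 0.5; circles replicate 1, triangles replicate 2, bars the mean). Ifnb1 is at 0 in sham, Irf7 peaks at day 60, and both sham libraries have the highest neutrophil sums, 16570 and 28980 CPM.

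How the genes varied among themselves can be seen in the ratio of the highest to the lowest group mean. It was largest for Iigp1 (43), Ifi27l2a (36.1), Samhd1 (14.8), Ifi44 (14.8), Oas2 (13.8) and Cmpk2 (13.5), and smallest for Parp14 (2.13), Ifih1 (2.28) and Dhx58 (2.33). Iigp1 and Ifi44 had their lowest mean at day 1 and their highest at day 60, Cmpk2 and Samhd1 their highest in sham and their lowest at days 3 and 7, and Ifi27l2a and Oas2 their highest in sham and their lowest at day 90. The order of neighbouring groups is often within the spread: Isg15 libraries of days 1 and 3 (27.4 to 45.2 and 19.2 to 52.3 CPM) overlapped each other, as did those of days 7 and 21 (11.7 to 15.9 and 12.4 to 29.7 CPM).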

How the data were processed

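RNA of sorted cortical cells labelled microglia was sequenced in 14 libraries, 2 for each of 7 groups. The authors deposited raw counts per gene, made with Bowtie2 2.3.4.2 and HTSeq 0.6.1 on mouse build mm9 per the submitters' processing notes. The sources used here do not give the annotation or the strand setting. The 14 deposited files of single libraries held the same value as the count table for all 14084 values, and 23 gene symbols that differed between them were taken from the table. The libraries of each group differed by more than sampling noise.

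Counts were filtered by group (filterByExpr, 223 genes removed), scaled by TMM and fitted in edgeR 4.0.16 under R 4.3.3 with a mean per group, 7 residual degrees of freedom and a common biological coefficient of variation of 0.639. Standard errors were taken as the fold change divided by the square root of F. Depth sets the counting error, and replicate 1 libraries are the shallower. The members, the lists and the direct comparisons of day 60 with day 21 and of day 90 with day 60 were chosen with earlier results of these data known. Values in every library are given for the up to 4 called genes with the largest change in each direction of each comparison, and for a panel of 12 genes whatever their result. Alternatives were DESeq2 1.42.0, limma-voom (limma 3.58.1), other scalings, no filter, a replicate block, a fit without day 21, a minimum fold change of 1.5 and each library left out. Promoter sequences and motif positions are from RefSeq, build GRCm38.p6. Shared sequence between genes was computed on GRCm38 transcripts, not on mm9. The values of 1 gene of the pathway list are not reported here.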

Additional observations from a re-analysis of the deposited data

Results flagged for a closer look

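For 26 genes (the 23 called at any time against sham, with Mx1, Usp18 and Bst2) the 15 pairs of times after stroke were compared, 390 pairs in all. In 25 pairs, in 6 genes, both libraries of one time lay above both sham libraries and both of the other lay below. The share of such pairs over all genes was not taken. Choosing 23 of the 26 genes by a call against the same sham libraries favours separation from sham, so the count is a description only. Values here are log2 ratios of group means, the second time over the first. These differences were not tested, except for day 60 against day 21 and day 90 against day 60.

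Gbp5 lay below sham at day 7 and above it later, with ratios of 3.24 to day 21, 3.01 to day 60 and 2.55 to day 90. Iigp1 lay below sham at days 1 and 3. From day 1 its ratios were 3.58 to day 21, 5.43 to day 60 and 4.61 to day 90, and from day 3 they were 3.05, 4.90 and 4.08. Isg15 was above sham at day 60 alone, with ratios of 2.20 from day 7, 1.59 from day 21 and -3.54 from day 60 to day 90. Ifit3 was also above sham at day 60 alone, with ratios of 2.35 from day 1, 2.26 from day 3, 1.62 from day 7, 1.29 from day 21 and -2.79 from day 60 to day 90. Mx1 lay below sham at days 1, 3 and 90 and above it at days 21 and 60. Its ratios were 1.20 and 1.56 from day 1, 1.64 and 2.003 from day 3 to days 21 and 60, and -1.74 and -2.10 from days 21 and 60 to day 90. Usp18 was above sham at day 60, with ratios of 1.73 from day 3 and -2.06 to day 90.

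In edgeR's direct test from day 60 to day 90 the adjusted p was 0.334 for Isg15, 0.334 for Ifit3, 0.556 for Usp18 and 0.939 for Mx1. From day 21 to day 60 it was 0.364 for both Isg15 and Ifit3. DESeq2 called Isg15, Ifit3 and Usp18 from day 60 to day 90.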

How the results depend on the processing

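The number of the 46 genes called was 4, 9, 12, 3, 3 and 14 at days 1, 3, 7, 21, 60 and 90, and 13 in the joint test. Of all genes 631, 1147, 1751, 892, 1088 and 1089 were called, and 999 jointly. DESeq2 called 14, 21, 23, 9, 5 and 22 of the 46 in that order, 31 jointly and 9 between days 60 and 90, and of all genes 1878, 2667, 3158, 2447, 2653 and 2616, 3475 jointly and 23 between days 60 and 90. The replicate block gave 11, 17, 20, 5, 5 and 22, and 26 jointly, and of all genes 1195, 2002, 2766, 1584, 1953 and 2006, and 1635 jointly. The numbers pair libraries only by number and depth: over 21 pairs of groups the replicate 2 minus replicate 1 differences correlated at 0.07 to 0.68 (median 0.37). limma-voom called 6 at day 21 (1830 of all genes). Without the day 21 libraries 5 were called at day 60 and 23 jointly (1749 and 1797 of all). A minimum fold change of 1.5 left 2 at day 1 and 5 at day 3 (435 and 786 of all). Leaving out 1 library gave 0 to 5, 1 to 3, 0 to 2, 0 to 9, 0 to 0 and 0 to 2 at the 6 times, 0 to 1 from day 21 to day 60, 0 to 0 from day 60 to day 90 and 2 to 20 jointly. The cause of these changes was not tested, beyond the fewer libraries in the last. No direction reversed among the 45 called fold changes. All 45 stayed called under median-of-ratios scaling, DESeq2, limma-voom, no filter and the block, 39 under upper-quartile scaling, 31 at the minimum fold and 21 of 180 values with a library left out. The median at day 60 ran from -0.18 to 0.24, so its sign is not set.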

Other observations

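Some of the genes differed by replicate number in every group, the same division that separates shallow from deep libraries. Ifi204 was 11.2 to 16.03 times higher in replicate 2 in all 7 groups, and 199 genes of 13861 had a larger mean ratio. Oas1a was 1.82 to 5.53 times higher and Mx2 1.00 to 5.02 times. Igtp, Irgm1 and Slfn5 were lower in replicate 2 in all 7 groups. Of all genes 7.96% were higher and 8.38% lower in replicate 2 in all 7 groups, beside 3 and 3 of the 46. Replicate number and depth cannot be told apart.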
